A study of Mus musculus with 7 samples.

Results

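The genes described here nearly disappeared from mouse pancreatic ductal adenocarcinoma (PDA) tumors when the cancer cells carried a guide RNA against *Krt19*. A gene was a member if its normalized read count was 20 or more in every control tumor and if its mean in the edited tumors was under 10% of its mean in the control tumors. Of the 38026 genes in the table, 18113 met the first condition, and 70 of these (0.386%) also met the second. One of the 70 is *Krt19* itself, which was left out, so 69 genes are members. Since the members were chosen on the difference between the groups, that difference is described for them and not tested. Test values are given only for genes that are not members, and where a count of calls includes a member, that call follows from its choice.

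All 7 tumors were grown under the skin of C57BL/6 mice from the line 1242, which was derived from a KPC mouse (a genetic model of pancreatic cancer whose tumor alleles, mutant *Trp53* among them, are switched on by *Pdx1*-Cre, a driver active in the pancreas), and were collected 2 weeks after inoculation without further treatment. Both groups carried the lentiCRISPR-v2 vector with Cas9. The 4 sgScramble tumors (replicates 1 to 4) had a scrambled guide and the 3 sgKRT19 tumors (replicates 5, 6 and 8) a guide against *Krt19*, an epithelial keratin gene. According to the methods of the study, mice were bought at 6 weeks of age and housed for 2 weeks before use, and edited cells were kept both as polyclonal lines and as single-cell clones. The labels do not say which kind formed these tumors, nor which guide was used, nor that each library came from a separate animal, so p-values measure the spread between these libraries only. A difference between the edited and the control cells that existed before or beside the editing of *Krt19*, such as one between clones, cannot be told apart from an effect of the editing.

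Values are normalized read counts (the reads of a gene after division by a library-wide size factor), and the number after ± is the SD between libraries unless it is marked as a standard error (SE). The libraries held 40781199 to 44972100 reads, and 3 reads, taken as the limit of detection, were worth 2.74 to 3.47 on this scale. *Krt19*, the targeted gene, read 25574, 21179, 27618 and 17841 in sgScramble tumors 1 to 4 and 1606, 1960 and 2470 in sgKRT19 tumors 5, 6 and 8, which left 8.73% of the sgScramble mean. Markers of cancer epithelium did not share that loss as a group. In limma's test (adjusted p under 0.05), 6 of 10 were higher in sgKRT19 tumors and none was lower. The 6 include *Krt8* (55494 ± 8276 against 103416 ± 8784, adjusted p = 0.00359) and *Cdh1*, the E-cadherin gene (25991 ± 1376 against 38248 ± 3824, adjusted p = 0.0101). The means of *Krt7* (6848 ± 3473 against 3473 ± 2006, adjusted p = 0.115) and *Cldn4* (31.4 ± 16.0 against 15.2 ± 11.7, adjusted p = 0.149) were lower but did not pass. In a whole tumor, fewer cells of a type and less RNA per cell cannot be told apart. All 8 skeletal muscle markers were higher in sgKRT19 tumors, where their summed value was 18854 to 26192 against 50.4 to 2145 in sgScramble tumors. The upper sgScramble value is that of tumor 3, where *Acta1* read 934, against 21.4, 21.7 and 26.9 in tumors 1, 2 and 4.

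The members have varied known roles. They include factors of embryonic development, oncofetal RNA-binding proteins, proteins of the synapse and proteins of the liver, the kidney, cilia and germ cells. Cadherins and adhesion G protein-coupled receptors hold cells together or sense contact, synaptic scaffolds and receptors serve signaling between neurons, and gel-forming mucins coat glandular epithelium. These roles are general knowledge about the genes and were not measured here.

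The 69 members retained a median of 4.28% of their sgScramble mean, from 0 to 9.8%. Of these genes, 5 retained under 1%, 11 from 1% to under 2.5%, 25 from 2.5% to under 5%, 11 from 5% to under 7.5% and 17 from 7.5% to the limit of 10%. Outside the limit the genes continued without a gap, with 48 genes from 10% to under 15%, 77 from 15% to under 20% and 949 from 20% to under 50%. Over all 18113 genes that met the first condition the median was 101.0%. Just inside the limit lay *Igf2bp1* (9.27%), *Ebf4* (9.31%), *9330182L06Rik* (9.67%) and *Rragb* (9.8%), and just outside it *C030034L19Rik* (10.1%), *Glrb* (10.2%), *Gal3st2c* (10.3%) and *Apol7d* (10.3%).

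**Figure D1:**
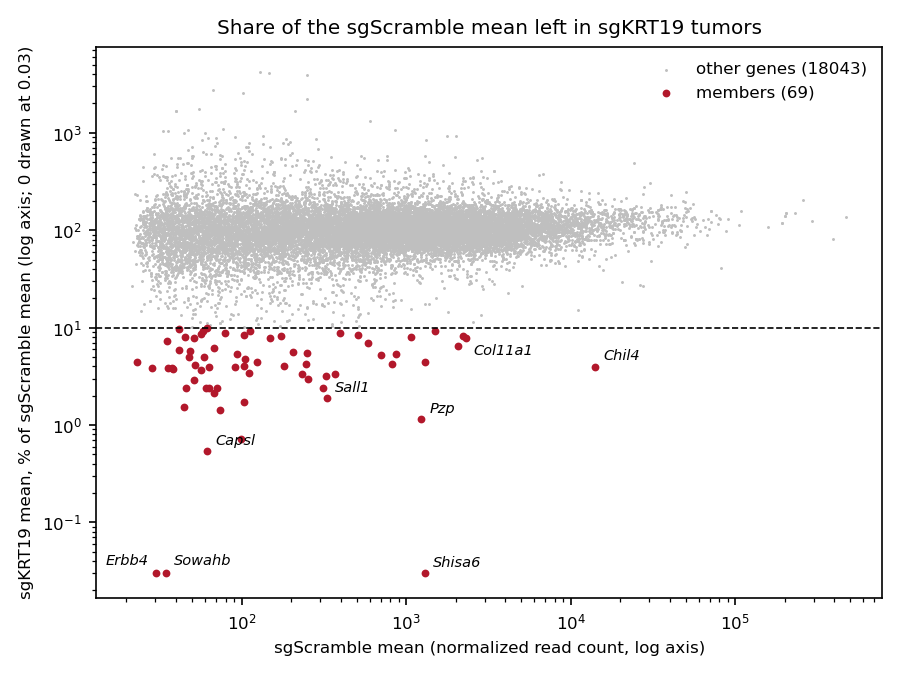
Mean in sgKRT19 tumors as a percentage of the sgScramble mean (vertical, log axis) against the sgScramble mean in normalized read counts (horizontal, log axis) for genes with 20 or more in every sgScramble library, *Krt19* not shown. The 69 members (red) lie under the dashed line at 10%, and *Shisa6*, *Sowahb* and *Erbb4*, with 0 reads in sgKRT19 tumors, are drawn at the lower edge.

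Most members were genes of low read count, a scale that is not corrected for gene length. Their median sgScramble mean was 99.1, against 749.0 for all genes that met the first condition, and 35 members (50.7%) had a mean under 100, compared with 16.4% of those genes. Only 9 members had a mean over 1000, namely *Chil4*, *Chil3*, *Col11a1*, *Pamr1*, *Igf2bp1*, *Shisa6*, *Muc6*, *Pzp* and *Cdh3*. *Chil4* alone made up 38.5% of the summed sgScramble means of the members. Of the 69, 64 (92.8%) are protein-coding in the GENCODE annotation, against 75.9% of all genes that met the first condition.

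All 69 members passed the filter of limma's test and were called lower, and in all 69 every sgKRT19 value lay below every sgScramble value. The rule used this contrast, so these counts follow largely from the choice of the members. Over all 21322 genes tested, 16.0% were called lower and 17.9% higher, and 19.3% had every sgKRT19 library below every sgScramble library. With scaling by library size alone, 72.5% of all calls were in the lower direction instead of 47.2%. The median change of genes with 10 or more in every library moved by -0.22 on the log2 scale.

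**Figure D2:**
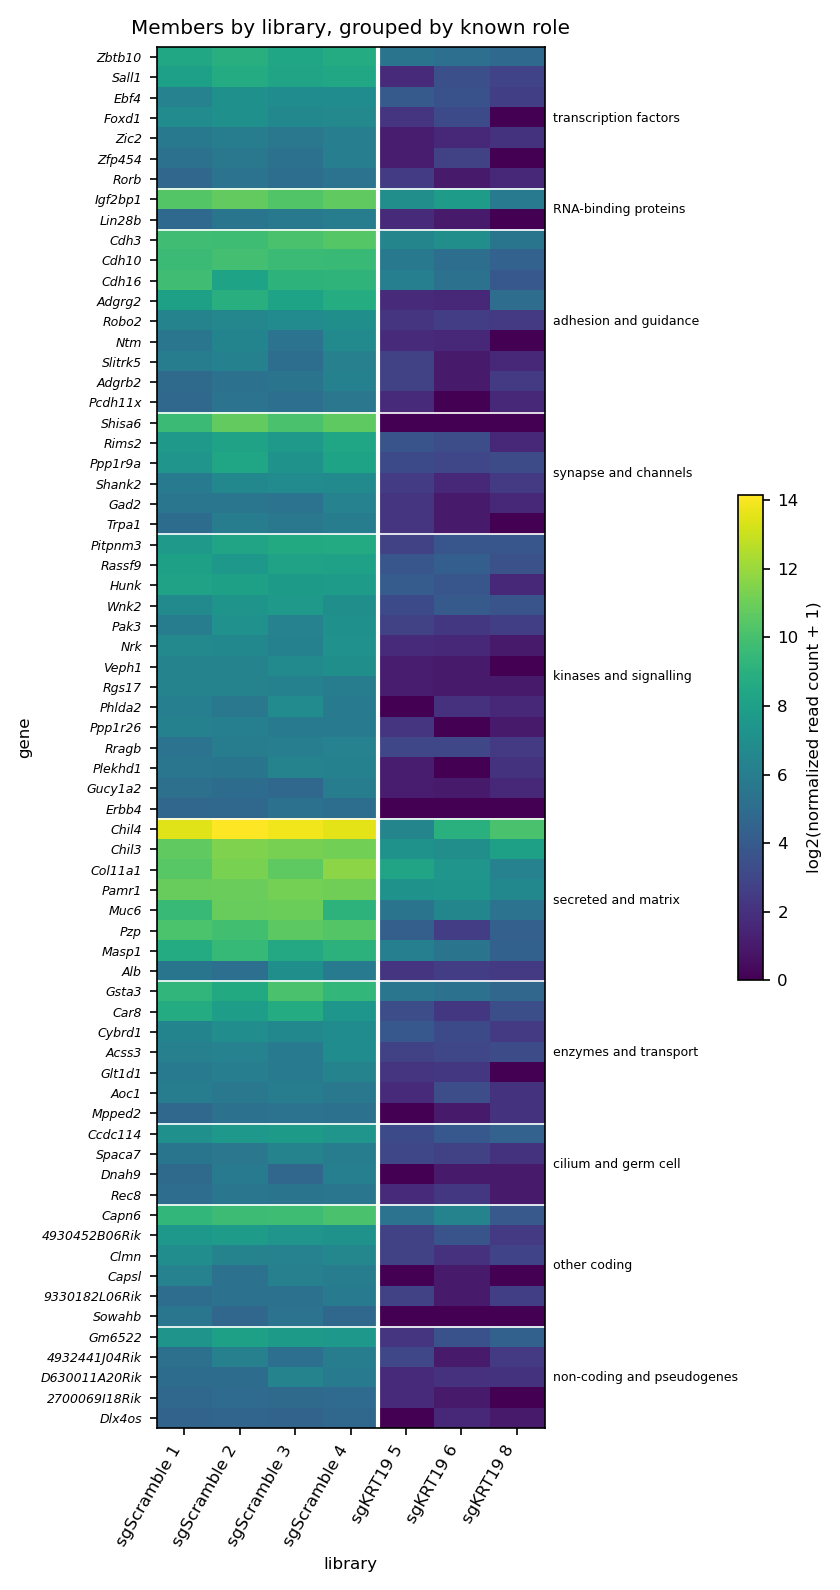
Normalized read counts of 68 of the 69 members in the 7 libraries, as log2(value + 1) in color, with the genes grouped by known role and ordered by sgScramble mean within a role. The 4 sgScramble columns are lighter than the 3 sgKRT19 columns in every row, and *Chil4* is the brightest row.

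Among the members, *Shisa6* was the highest gene without a single read in sgKRT19 tumors. It encodes a membrane protein that associates with AMPA-type glutamate receptors at synapses. Its values in sgScramble tumors 1 to 4 were 798, 1741, 1072 and 1604, and 0 reads were counted in each of sgKRT19 tumors 5, 6 and 8. Set against the limit of detection of 3 reads per library, the gene was at least 376-fold lower, the largest bound among the 3 members without reads in any sgKRT19 library. *Shisa6* lies on chromosome 11 from 66211725 to 66525964 on the minus strand (GRCm38). Of its exon windows of 76 bases, the read length of the study, none occurred in another gene.

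The other members with no reads in any sgKRT19 tumor were *Sowahb* and *Erbb4*, both of low expression. *Sowahb*, an ankyrin-repeat gene, read 46.4, 24.7, 41.1 and 26.9 in sgScramble tumors and was at least 10.0-fold lower. *Erbb4*, a receptor for neuregulins of the EGF receptor family, read 24.1, 25.7, 37.4 and 33.4 and was at least 8.7-fold lower. These bounds are weaker than that of *Shisa6* because the sgScramble values were closer to the limit of detection. The other genes of the receptor family, a list made after the values were seen, kept expression in sgKRT19 tumors: *Egfr* kept 47.7% of its sgScramble mean, *Erbb2* 85.0% and *Erbb3* 273%. The sequences just before the annotated starts of *Erbb4* and *Sowahb* are shown because these are the members at 0 reads with a promoter sequence in the RefSeq table. They are 250 bases each on the minus strand of GRCm38.p6, at chr1:69108060-69108309 for *Erbb4* and chr5:93045023-93045272 for *Sowahb*, and capitals mark CG dinucleotides, of which there are 12 and 20.
Erbb4: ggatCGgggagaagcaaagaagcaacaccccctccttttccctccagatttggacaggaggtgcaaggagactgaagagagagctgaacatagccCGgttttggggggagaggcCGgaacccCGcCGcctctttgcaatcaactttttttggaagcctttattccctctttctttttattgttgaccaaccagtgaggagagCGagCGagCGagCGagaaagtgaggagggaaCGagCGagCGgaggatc
Sowahb: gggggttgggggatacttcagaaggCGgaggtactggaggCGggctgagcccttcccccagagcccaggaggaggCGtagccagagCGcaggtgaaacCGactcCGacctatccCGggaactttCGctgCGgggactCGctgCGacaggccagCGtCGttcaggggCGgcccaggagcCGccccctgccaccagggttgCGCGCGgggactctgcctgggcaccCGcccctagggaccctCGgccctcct
The median over all 32851 promoter sequences of that table, each 300 bases long, was 7.0 CG dinucleotides. At this full length the sequences of *Erbb4* and *Sowahb* held 17 and 27. The promoter sequences of the members in that table held from 1 (*Spaca7*) to 48 (*Ppp1r26*), so the stretches shown do not stand for the members as a set. DNA methylation was not measured in this series.

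In 22 of the 69 members no sgKRT19 library held more than 3 reads. Members with a low sgScramble mean could keep only a few reads under the rule. This count therefore follows largely from the choice of the members, and it was not compared with other genes. *Capsl*, which encodes a calcium-binding protein related to calcyphosine, had 1 read in all sgKRT19 tumors together, or 0.541% of its sgScramble mean. The 95% interval of this share, an exact binomial interval from the reads of both groups, was 0.0145% to 3.22%. *Veph1*, a pleckstrin homology domain gene, had 2 reads (0.725%, interval 0.0861% to 2.59%) after 79.9, 78.1, 108 and 131 in sgScramble tumors. *Rgs17*, an inhibitor of G protein signaling, had 3 reads, 1 in each library (1.44%, interval 0.295% to 4.24%). At these depths the order of the lowest members is not resolved, since the intervals overlap, and the intervals cover counting error only.

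In contrast, 14 members had 10 or more reads in every sgKRT19 library, so that their residual expression could be compared between tumors. *Chil4* had 84.4, 497 and 1101 in sgKRT19 tumors 5, 6 and 8, or 0.597% to 7.78% of the sgScramble mean, and without tumor 8 the mean share left was 2.06% in place of 3.96%. *Igf2bp1* went from 57.8 in tumor 8 to 228 in tumor 6, and *Col11a1* from 76.7 in tumor 8 to 302 in tumor 5. The tumor with the most was thus a different one for each of these 3 genes. Most of the 14 members were nevertheless lowest in tumor 8, with *Chil4* and *Chil3* highest there. *Adgrg2*, outside these 14, had 2 reads in each of tumors 5 and 6 but 31 reads in tumor 8, and its share left was 0.585% without tumor 8 in place of 3.33%.

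**Figure D3:**
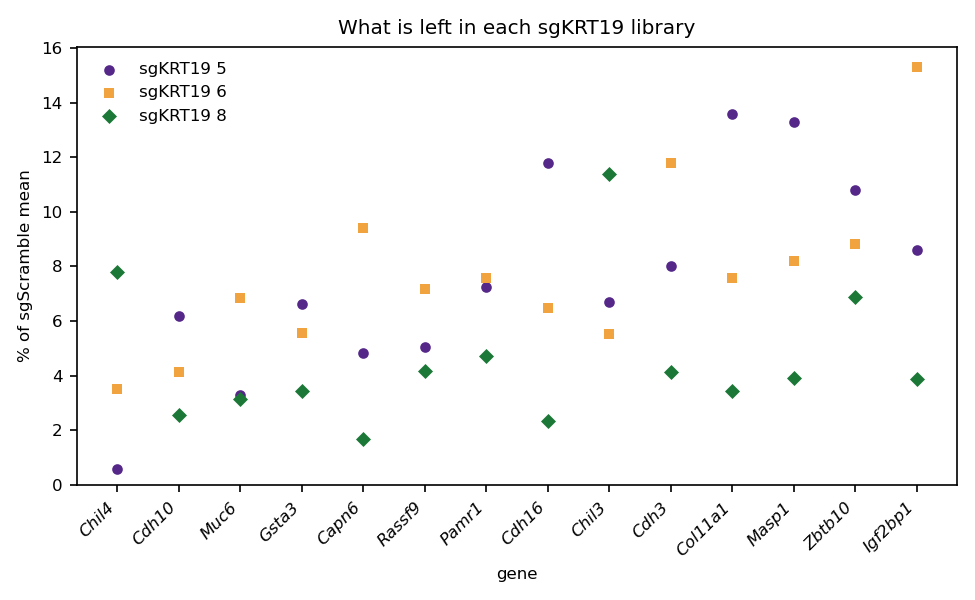
Value in each sgKRT19 library as a percentage of the sgScramble mean for the 14 members with 10 or more reads in every sgKRT19 library, ordered by their mean percentage. sgKRT19 8 (green diamonds) is lowest for most of these genes but highest for *Chil4* and *Chil3*, and 7 of the 14 exceed 10% in at least 1 library.

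Over all 69 members, the median share left was 5.06% in sgKRT19 tumor 5, 3.79% in tumor 6 and 3.88% in tumor 8. Of the members, 30 (43.5%) were lowest in tumor 8, compared with 33.7% of the other genes that met the first condition. Only 8 members (11.6%) had the order of *Krt19* itself, which was lowest in tumor 5 and highest in tumor 8, and 16.0% of the other genes had it.

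Variation among the sgScramble tumors was larger for the members than for most genes. The median coefficient of variation was 25.3%, from 7.32% for *Dlx4os* to 66.0% for *Alb*, against a median of 13.3% for all genes that met the first condition. Of the members, 33 (47.8%) were lowest in sgScramble tumor 1, compared with 27.7% of the other genes. Tumors 2 and 4 were both above tumors 1 and 3 in 27 members (39.1%, against 29.4% of the other genes), tumors 3 and 4 were both above 1 and 2 in 18 members (26.1%, against 10.9%), and tumors 1 and 3 were both above 2 and 4 in only 5 members (7.25%, against 30.4%). Low genes carry more counting error, and the part of expression level in the larger variation was not tested. The lowest sgScramble value was at least 4.2 times the highest sgKRT19 value in every member with reads in sgKRT19 tumors (*Cdh16* was the closest), with a median of 10.5 times, a separation that the rule itself largely sets.

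Secreted and matrix proteins formed the group with the highest expression (8 members, median 6.35% left). The highest member, *Chil4*, and its neighbor *Chil3* (Ym2 and Ym1) encode chitinase-like lectins known from macrophages and from inflamed epithelium. *Chil4* read 11394, 18243, 14790 and 12139 in sgScramble tumors 1 to 4, and 3.96% of this was left. *Chil3* read 1683, 2786, 2455 and 2272 there and 154, 127 and 263 in sgKRT19 tumors, so that 7.88% was left. Per kb of exon, the sgScramble means were 5020 for *Chil4* and 1409 for *Chil3*.

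*Chil3* (chromosome 3 from 106147554 to 106167564), *Chil4* (106201490 to 106219507) and the third member at this site, the gene model *Gm6522*, start within 108.0 kb of each other. *Gm6522* read 158, 265, 207 and 187 in sgScramble tumors and 3.47, 11 and 20 in sgKRT19 tumors. All 3 genes were highest in sgScramble tumor 2 and lowest in sgScramble tumor 1. They also share sequence, since 12.5% of the 76-base windows of *Chil3*, 5.13% of those of *Chil4* and 8.87% of those of *Gm6522* occurred in another gene, so part of their reads may have been counted at the wrong one. Of the related genes, chosen after the values were seen, *Chil1* averaged 50 ± 29.5 in sgScramble tumors with 131% left in sgKRT19 tumors, *Chit1* 64.9 ± 72.9 with 141% left, and *Chil5* 18.2 ± 4.17 with 56.3% left. Macrophage markers did not fall as a group: 1 of 8 was lower (*Mrc1*, 2377 ± 527 against 1654 ± 188, adjusted p = 0.0378) and 3 were higher, and their summed value was 32739 to 44996 in sgScramble and 42410 to 62319 in sgKRT19 tumors. The part of macrophages in the difference of *Chil3* and *Chil4* was not tested.

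The stretches just before the annotated starts of *Chil3* and *Chil4* are shown because both members changed at one site and their promoters are near copies. Both are on the minus strand of GRCm38.p6 (RefSeq), at chr3:106167565-106167785 for *Chil3* and chr3:106219508-106219728 for *Chil4*, and capitals mark the bases that differ between them or have no partner in the alignment.
Chil3: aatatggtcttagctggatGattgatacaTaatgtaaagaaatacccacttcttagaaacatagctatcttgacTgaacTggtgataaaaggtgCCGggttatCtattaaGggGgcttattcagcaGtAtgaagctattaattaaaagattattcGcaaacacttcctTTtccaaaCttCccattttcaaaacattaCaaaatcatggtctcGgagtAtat
Chil4: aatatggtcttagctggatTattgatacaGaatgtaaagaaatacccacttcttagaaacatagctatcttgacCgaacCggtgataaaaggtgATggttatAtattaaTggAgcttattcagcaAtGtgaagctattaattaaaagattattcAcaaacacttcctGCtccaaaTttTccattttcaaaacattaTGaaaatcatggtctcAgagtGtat
Of 222 aligned columns, 201 (90.5%) held the same base, 19 a different base and 2 a gap.

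Other secreted members differed in how much was left. *Pzp*, a protease inhibitor of the alpha-2-macroglobulin family made by the liver and known from pregnancy serum, read 1146, 934, 1540 and 1310 in sgScramble tumors and 18.5, 5.0 and 18.9 in sgKRT19 tumors. With 1.15% left it had the lowest share among the members over 1000 apart from *Shisa6*. Its family did not follow: of 3 members tested only *Pzp* was lower, and *A2m* (94.1 ± 56.2 against 146 ± 51.5, adjusted p = 0.164) and *Cd109* (166 ± 36.6 against 156 ± 5.27, adjusted p = 0.819) did not pass the test. *Col11a1*, a fibrillar collagen chain of cartilage that tumors also express, read 1423, 2498, 1625 and 3345 against 302, 168 and 76.7. None of the 10 fibroblast markers, which include the major collagen genes, passed the test in either direction. *Pamr1*, a secreted protein with a protease-like domain, varied least between sgScramble tumors among the 9 members over 1000, with 1899, 1933, 2302 and 2153 against 150, 157 and 97.7.

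*Muc6*, a gel-forming mucin of gastric and pancreatic glands, read 762, 1841, 2028 and 569 in sgScramble tumors and 42.8, 89.0 and 41.0 in sgKRT19 tumors. The mucin genes beside it moved the other way. *Muc5ac*, the mucin of the gastric surface, which starts 134 kb away, rose from 623, 603, 1713 and 465 to 6074, 11205 and 9860 (a log2 difference of 3.56 with SE 0.388, adjusted p = 0.000187 in limma). *Muc5b*, 184 kb away, rose from 677 to 3522 on average (2.43 with SE 0.308, adjusted p = 0.000392 in limma). The groups did not overlap for *Muc5ac* or *Muc5b*, and for the member *Muc6* the lack of overlap follows largely from the rule.

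*Alb*, serum albumin, was low and uneven in sgScramble tumors (44.6, 35.6, 134 and 58.4) and read 3.47, 5.0 and 4.2 in sgKRT19 tumors. Of the 5 hepatocyte markers tested, 4 were lower, *Alb* included, and the summed value of the list was 2137 to 4283 in sgScramble and 743 to 1076 in sgKRT19 tumors. *Ttr*, transthyretin, made up most of that sum. It fell from 2442 ± 889 to 735 ± 174 (limma adjusted p = 0.000753) and *Serpina1a*, an antitrypsin gene, from 38.3 ± 17.4 to 1.09 ± 1.05 (limma adjusted p = 0.000245). *Apoa1*, an apolipoprotein gene, did not pass (131 ± 36.7 against 90.2 ± 22.9, limma adjusted p = 0.143). The genes next to *Alb* on its chromosome, *Afp* (135 against 37.2, adjusted p = 0.00372) and *Afm* (34.1 against 6.04, adjusted p = 0.000394), which encode related serum proteins, were also lower in limma's test. The part of liver-type cells in these values was not tested.

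**Figure D4:**
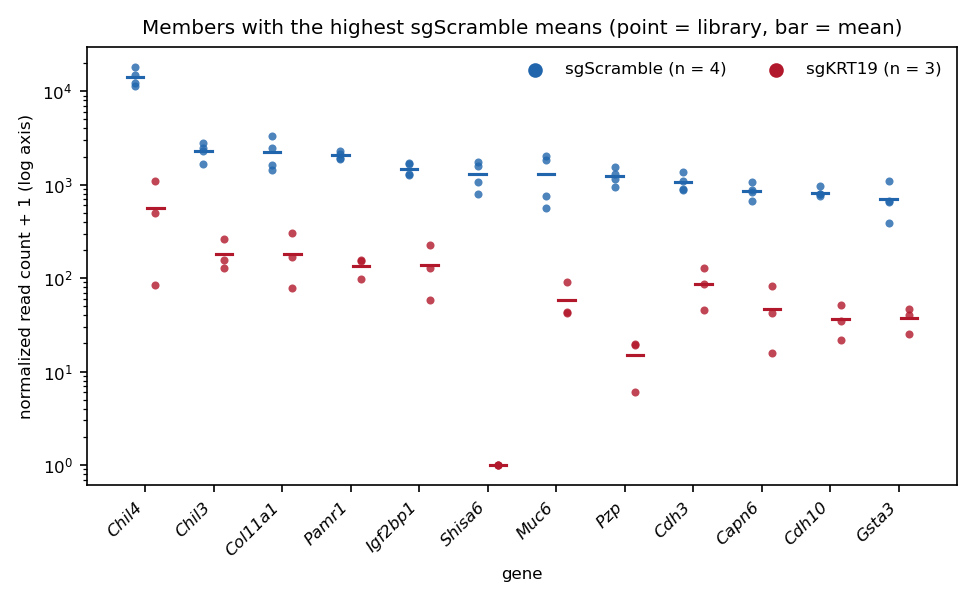
The 12 members with the highest sgScramble means, with 1 point per library and a bar at the group mean, as normalized read count + 1 on a log axis (sgScramble blue, n = 4; sgKRT19 red, n = 3). The groups are separate for all 12 genes, *Shisa6* lies at 0 reads in sgKRT19 tumors, and *Chil4* has the widest spread among the sgKRT19 tumors.

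Transcription factors made up 7 members with a median of 4.98% left. *Sall1*, a zinc finger factor of kidney and limb development, read 249, 418, 310 and 343 in sgScramble tumors and 2.31, 10.0 and 6.3 in sgKRT19 tumors, or 1.88% of the mean. The only other SALL gene tested, *Sall2*, was lower as well (839 ± 129 against 239 ± 44.6, a log2 difference of -1.81 with SE 0.17, adjusted p = 8.39e-05), while *Sall4* was at or near 0 reads in all libraries. *Zbtb10*, a zinc finger repressor, had the highest read count of the 7, with 354, 476, 337 and 422 against 42.8, 35.0 and 27.3. *Ebf4*, of the early B cell factor family, kept 9.31%. None of the 3 B cell markers tested passed in either direction.

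Among the other factors, several act in the embryonic nervous system, kidney or eye. *Foxd1*, a forkhead factor of the kidney stroma, read 111, 135, 97.7 and 102 against 3.47, 8.0 and 0. *Zic2*, a zinc finger factor of the forebrain, read 51.1, 62.2, 50.2 and 64.9 against 1.16, 2 and 3.15. Its neighbor *Zic5*, which starts 9.76 kb away and was too low to be a member, went from 35.3, 16.8, 29.2 and 32.5 to 0 in all sgKRT19 tumors (limma adjusted p = 4.56e-05). *Rorb*, a nuclear receptor of the retina and cortex, averaged 35.0 with 7.35% left, and *Zfp454*, a zinc finger gene, 47.9 with 4.98% left.

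The 2 RNA-binding members are oncofetal proteins, expressed in the embryo and again in tumors. *Igf2bp1*, which stabilizes mRNAs such as that of *Myc*, read 1297, 1728, 1280 and 1655 in sgScramble tumors and 128, 228 and 57.8 in sgKRT19 tumors. *Lin28b*, which blocks the maturation of let-7 microRNAs, read 27.9, 44.5, 52.1 and 60.3 against 2.31, 1.0 and 0, or 3 reads in all. The related *Igf2bp2* and *Igf2bp3* and the oncofetal gene *Hmga2*, chosen after the values were seen, kept 66.0%, 76.7% and 67.4% of their sgScramble means.

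Adhesion and guidance receptors gave 9 members with a median of 4.28% left. P-cadherin, encoded by *Cdh3*, read 910, 875, 1107 and 1379 in sgScramble tumors and 85.5, 126 and 44.1 in sgKRT19 tumors. *Cdh10*, a cadherin of neurons, read 791, 968, 790 and 750 against 50.9, 34 and 21. *Cdh16*, the kidney-specific cadherin, read 905, 291, 571 and 579 against 69.4, 38 and 13.7. Other cadherins with a mean over 1000 in sgScramble tumors, listed after the values were seen, ranged from 39.6% left for *Cdh6* and 51.5% for *Cdh2* to 189% for *Cdh17*, so the near loss did not extend over the family.

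Of the adhesion G protein-coupled receptors, *Adgrg2*, known from the epididymis, read 268, 475, 299 and 433 in sgScramble tumors and 2.31, 2.0 and 32.6 in sgKRT19 tumors, and *Adgrb2*, of the brain, 28.8, 39.5, 42 and 72.3 against 5.78, 1.0 and 4.2. Over the 20 genes of this family that were tested, 10 were lower and 4 higher, with a median log2 fold change of -0.35. The 10 include both members, whose calls follow from their choice. Over all tested genes, 16.0% were lower and 17.9% higher, with a median of 0.01. The largest changes among the others were in *Adgrf1* (13.8 ± 7.51 against 1.74 ± 1.1, limma adjusted p = 0.0046), *Adgrv1* (36.3 ± 11.6 against 7.5 ± 1.31, limma adjusted p = 0.00129) and *Adgrl3*, a latrophilin (1212 ± 226 against 344 ± 118, limma adjusted p = 0.000461). On the other side, *Adgrg7* rose from 20 ± 9.11 to 68.3 ± 25.4 (limma adjusted p = 0.00859) and *Adgrg5* from 92.6 ± 20.4 to 255 ± 50.4 (limma adjusted p = 0.000915).

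*Robo2*, a receptor for the guidance ligands of the Slit family, read 79.9, 91.9, 111 and 132 against 3.47, 5.0 and 4.2. Its close relative *Robo1* kept 18.9% (432 ± 127 in sgScramble tumors), while *Robo4*, a receptor of endothelium, had 148% left. The ligand genes *Slit1*, *Slit2* and *Slit3* kept 93.0%, 59.4% and 71.0%. These relatives were named after their values were seen. The remaining members of the group, *Ntm*, *Slitrk5* and *Pcdh11x*, are adhesion proteins of neurons, with sgScramble means of 68.2, 59.2 and 37.8 and with 2.11%, 5.0% and 3.89% left.

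Genes known from synapses and ion channels gave 7 members with a median of 3.34% left. Besides *Shisa6* they include *Rims2*, a scaffold of the presynaptic release site (203, 287, 191 and 335 against 11.6, 9.0 and 2.1), and *Ppp1r9a*, or neurabin, which binds actin in dendritic spines (163, 326, 150 and 300 against 8.09, 7.0 and 8.4). *Gad2*, which makes GABA, read 46.4, 45.5, 40.2 and 77.9 against 3.47, 1.0 and 2.1. The postsynaptic scaffold gene *Shank2* read 52.9, 94.9, 113 and 105 against 4.62, 2.0 and 4.2. *Trpa1*, an irritant-sensing channel of sensory neurons, averaged 51.3 with 2.9% left.

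Of the 4 neuronal markers tested, none was called lower, and their median log2 fold change was -0.40. *Snap25* (60.1 ± 9.53 against 40.6 ± 5.56, adjusted p = 0.082), *Stmn2* (24.9 ± 15.7 against 13.7 ± 3.21, adjusted p = 0.335) and *Syp* (29.3 ± 3.25 against 24.8 ± 5.27, adjusted p = 0.483) did not pass limma's test. *Tubb3*, a neuronal tubulin that tumors also express, made up most of the summed value of the list (958 to 1599 in sgScramble and 3258 to 4322 in sgKRT19 tumors) and rose from 1223 ± 308 to 3557 ± 594 (limma adjusted p = 0.000493). The part of neurons in the values of the members was not tested. Of the 5 Schwann cell markers tested, 1 was lower and 1 higher. In the Shisa family, 5 genes were tested, of which *Shisa6* was the only one lower. *Shisa2*, an inhibitor of Wnt and FGF receptor maturation, rose from 192 ± 64.4 to 1454 ± 224 (a log2 difference of 2.96 with SE 0.231, adjusted p = 3.89e-05 in limma), and *Shisa5* from 3864 ± 172 to 6049 ± 142 (0.65 with SE 0.0943, adjusted p = 0.000825).

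Kinases and other signaling proteins formed the largest group, with 14 members, a median of 2.81% left and sgScramble means of 30.2 to 326. In 8 of the 14 no sgKRT19 library held more than 3 reads, which for genes this low follows partly from the rule. *Pitpnm3*, a membrane-associated phosphatidylinositol transfer protein, was the highest, with 196, 312, 386 and 408 against 5.78, 13.0 and 12.6. *Hunk*, a kinase of the AMPK-related family, read 284, 262, 211 and 227 against 16.2, 13.0 and 2.1. The kinase gene *Wnk2* averaged 149 with 7.77% left, and *Nrk*, a kinase of the placenta on the X chromosome, 103 with 1.73% left. *Phlda2*, an imprinted growth regulator of the placenta, read 68.7, 49.4, 111 and 53.8 against 0, 3.0 and 2.1. *Rragb*, a GTPase of amino acid sensing by mTORC1, had the largest share left of all members, with 40.9, 64.2, 66.7 and 75.1 against 6.94, 7.0 and 4.2.

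Enzymes and transport proteins gave 7 members with a median of 5.21% left. *Gsta3*, a glutathione transferase, was uneven in sgScramble tumors (646, 390, 1087 and 674) and read 46.2, 39.0 and 24.2 in sgKRT19 tumors. *Car8*, a carbonic anhydrase-related protein without catalytic activity, read 424, 245, 417 and 172 against 9.25, 4.0 and 9.45. *Cybrd1*, a ferric reductase, averaged 104 with 8.34% left. For *Acss3*, a short-chain acyl-CoA synthetase, 33.9% of the exon bases overlap *Ppfia2* on the opposite strand, which itself went from 50.5 to 7.01. The study names a stranded library kit, but whether the counting used strand is not given in the sources used here. Reads of the shared part may therefore have been counted at either gene.

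Genes of cilia and germ cells gave 4 members. *Ccdc114*, which docks dynein arms in motile cilia, read 135, 186, 212 and 164 against 8.09, 14 and 21. *Dnah9*, an axonemal dynein heavy chain, read 28.8, 57.3, 24.7 and 67.7 against 0, 1.0 and 1.05. The summed value of the ciliated cell markers was 303 to 500 in sgScramble and 184 to 293 in sgKRT19 tumors, and of 3 tested, 2 were lower: *Foxj1*, the master regulator of motile cilia (72.0 ± 8.69 against 19 ± 3.59, limma adjusted p = 0.000347), and *Ccdc39* (326 ± 83.7 against 190 ± 62.9, limma adjusted p = 0.0407). The part of ciliated cells in these values was not tested. Over the 10 axonemal dynein heavy chains tested, 3 were lower, *Dnah9* included, and 1 was higher, *Dnah14* (682 ± 120 against 1580 ± 232, limma adjusted p = 0.000566). *Rec8*, a meiotic cohesin, averaged 41.6 with 5.9% left. *Spaca7*, of the sperm acrosome, read 44.6, 48.4, 79.5 and 61.2 against 6.94, 6.0 and 3.15, and shares 13.5% of its exon bases with the member *D630011A20Rik* on the opposite strand, so these 2 may not be separate signals.

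Among the remaining coding members, *Capn6*, a calpain-like protein of placenta and embryonic muscle that lacks protease activity, was the highest, with 669, 830, 871 and 1082 against 41.6, 81.0 and 14.7. The other 5 were *4930452B06Rik*, *Clmn*, *Capsl*, *9330182L06Rik* and *Sowahb*, with sgScramble means of 34.8 to 181. The 5 members that are not protein-coding averaged 23.0 to 204 in sgScramble tumors. Of these, *4932441J04Rik* overlaps *Pcdh7* over 47.4% of its exon bases on the opposite strand, and *Pcdh7* went from 589 to 83.1 (limma adjusted p = 5.53e-05). *Dlx4os* shares 4.75% of its exon bases with *Dlx4* on the opposite strand, which went from 36.6 to 10.5.

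The position of the members in the genome was not used by the rule. They lay on 18 of the mouse chromosomes, with 7 each on chromosomes 3 and 11, 6 each on 2 and X and none on 17 or 18. Members were 1.0% of the 600 genes on the X chromosome that met the first condition and 0.161% to 0.752% on each autosome that held any. Besides the 3 genes at the *Chil3* site, 4 pairs of members started within 500 kb of each other. These were *Shisa6* and *Dnah9* (357 kb apart), *Capn6* and *Pak3* on the X chromosome (309 kb), *Shank2* and *Phlda2* (499 kb), and *Spaca7* and *D630011A20Rik* (0.3 kb).

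*Shisa6* and *Dnah9* were examined with their surroundings, since both were at or near 0 reads. The gene model *Gm12296* overlaps both on the opposite strand and *Gm12297* lies beside the start of *Shisa6*, with sgScramble means of 2.85 and 3.29 and 0 in sgKRT19 tumors. On one side, the next expressed genes kept most of their level: *Zkscan6* read 431 ± 5.38 against 342 ± 22.6 (adjusted p = 0.0513) and *Map2k4*, a kinase of the JNK pathway, 1939 ± 103 against 1480 ± 113 (a log2 difference of -0.39 with SE 0.103, adjusted p = 0.0162 in limma). On the other side, *Tmem220* (58.9 ± 16.4 against 52.2 ± 2.12, adjusted p = 0.704), *Adprm* (370 ± 50.2 against 334 ± 47.8, adjusted p = 0.492) and *Sco1* (424 ± 49.4 against 418 ± 19.8, adjusted p = 0.931) did not pass the test. Beyond them the skeletal muscle myosins *Myh3*, *Myh2*, *Myh1* and *Myh4* were higher in sgKRT19 tumors. The DNA of these cells was not measured here.

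**Figure D5:**
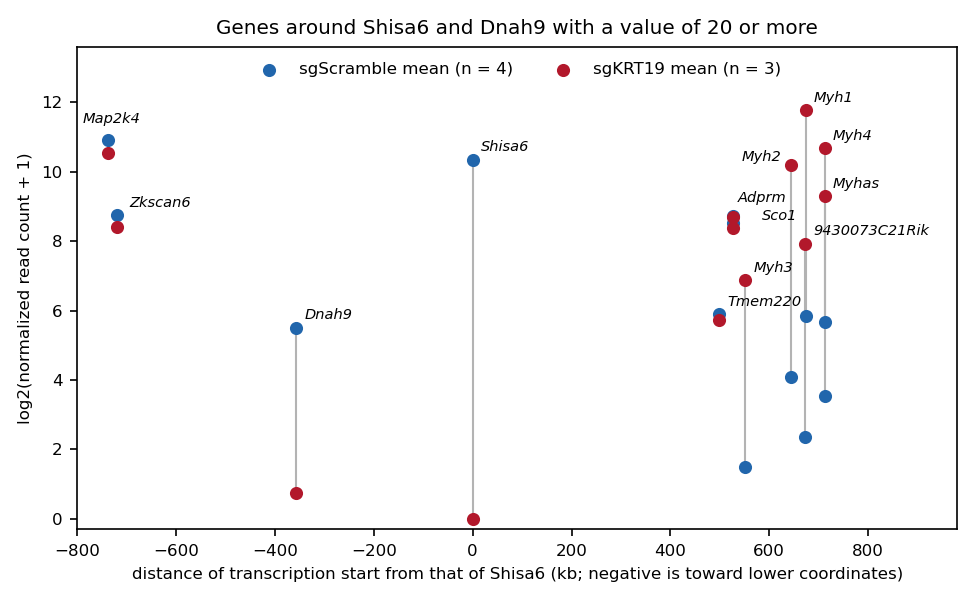
Group means as log2(normalized read count + 1) of genes around *Shisa6* that reach 20 or more in some library, by the distance of their transcription start from that of *Shisa6* in kb (sgScramble blue, sgKRT19 red, joined by a gray line). *Shisa6* and *Dnah9* drop to 0 or nearly so, the genes flanking them on both sides lie close together, and the muscle myosins on the right are higher in sgKRT19 tumors.

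Neighbors of the members were tested as a set of genes that the rule had not chosen. Of 668 tested genes with a start within 500 kb of that of a member, 130 (19.5%) were lower in sgKRT19 tumors and 119 (17.8%) were higher, beside 15.7% and 18% of the other tested genes. Their median log2 fold change was 0.03. Most neighbors therefore did not follow the members, and genes near to each other are not independent, so these shares are given as a description.

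Among the neighbors that fell furthest were genes by *Zbtb10*, *Zfp454*, *Aoc1*, *Pamr1* and *Nrk*. By *Pamr1*, *Fjx1*, related to a regulator of cell polarity in the fly, went from 1526, 1871, 1971 and 1836 to 333, 250 and 205 (limma adjusted p = 1.92e-05), and *Slc1a2*, a glutamate transporter, from 310 to 54.5 (limma adjusted p = 3.91e-05). By *Zbtb10*, *Zfp704* went from 821, 1319, 885 and 1288 to 135, 172 and 198 (limma adjusted p = 3.89e-05). The zinc finger genes *Zfp354a*, *Zfp354b* and *Zfp354c* around *Zfp454* went from 125 to 15.6, from 43.0 to 5.73 and from 301 to 74.7. *Krba1* and *Zfp467*, which start 477 and 427 kb from *Aoc1*, went from 508 to 65.7 and from 475 to 81.4, and *Pwwp3b*, 296 kb from *Nrk*, from 707 to 117. All of these 9 genes kept their direction and their call in each of the 12 other settings of the fit.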

How the data were processed

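RNA-seq of 7 tumors was analyzed (4 sgScramble, 3 sgKRT19). The authors deposited 1 table of normalized read counts, a signal made by dividing reads per gene by a size factor for each library. Dividing by the worth of 1 read gave whole reads for 100% of values in each library (within 0.1 read). The labels name the build mm10 (GRCm38). The aligner, the counting program and the size factor method are not given in the sources used here. Positions and exons came from GENCODE M21 and promoter sequences from RefSeq (GRCm38.p6).

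Genes with a value of 10 or more in at least 3 libraries were tested with limma 3.58.1 (trend) on log2(value + 1) in R 4.3.3, with Benjamini-Hochberg adjustment at 0.05. A fold change on this scale understates the change of low genes. The reads were also tested with edgeR 4.0.16 and DESeq2 1.42.0, and the fit was tested on simulated data. The members and the gene lists were chosen with earlier results of these data known. The members named by rule were the 12 with the highest sgScramble means, the 8 with the smallest share left, those within 500 kb of another member, those on family lists and those next to the 10% limit. Other named genes were chosen after their values were seen, and roles were assigned to the members once these were known. The design foresaw a share of CpG-rich promoters, but only 46 of 69 members (66.7%, under the 80% needed) matched the promoter table by symbol, so that check is void and its alternatives were not run. No libraries were left out of the main fit. One member is not reported here by name.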

Additional observations from a re-analysis of the deposited data

Results flagged for a closer look

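In each of the 69 members, the highest and the lowest of the 4 sgScramble libraries were compared with the library nearest to them, and 2 members (2.9%) had a library far from the others, where chance gives about 1 in 20 per group. *Gad2* was highest in sgScramble tumor 4 (77.9, with the others at 40.2 to 46.4), and this gap was 0.834 of the range. *2700069I18Rik* was lowest in sgScramble tumor 1 (25.1, with the others at 29.2 to 29.7), and this gap was 0.902 of the range.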

How the results depend on the processing

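The number of members depends on the limits chosen. It was 41 with a limit of 5%, 194 with a limit of 20% and 43 with a minimum of 50 in every sgScramble library, and 97 with a minimum of 10, 78 with group medians and 87 with scaling by library size alone. Leaving out 1 library at a time gave 66 to 78 members. Without sgKRT19 tumor 8, 61 of the 69 were still members, the fewest of the 7 leave-outs. The median share left was 4.2% to 5.07% in these leave-outs, with the highest value without sgKRT19 tumor 8. Of 261 shares left of the 29 named members under other settings, 13, in 8 members, differed from the main value by over 1.5 times. Among them, *Adgrg2* had 0.585% and *Gm6522* 3.54% left without sgKRT19 tumor 8, and *Capn6* 3.26% without sgKRT19 tumor 6, while *Capsl*, *Veph1*, *Dnah9* and *Phlda2* rest on 1 to 5 reads. Of the 29, 6 exceeded 10% in some setting (12.0% at most).

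With scaling by library size alone, 5727 genes were lower and 2177 higher in place of 3420 and 3820. Leaving out 1 library gave 2232 to 3611 lower (fewest without sgScramble tumor 2) and 2481 to 4103 higher (fewest without sgKRT19 tumor 5). edgeR called 3499 lower and 3689 higher, and DESeq2 3862 and 4109. Of the neighbors, 57 (20.5%) were lower within 200 kb and 220 (17.1%) within 1000 kb, and 92 to 135 in the leave-outs within 500 kb. Calls were lost for *Map2k4* without sgScramble 2 or sgKRT19 5, for *Mrc1* without sgScramble 2 or 4 or sgKRT19 5 or 8, and for *Ccdc39* without sgScramble 2, 3 or 4 or sgKRT19 5 or 6. No paired analysis was possible because the groups share no replicate number. Values at or under 3 reads are not resolved at this depth.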
